A study of Mus musculus with 9 samples.

Results

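The transcripts of the haemoglobin genes and of the erythroid enzyme of haem synthesis were followed in 9 RNA sequencing libraries of mouse kidney and muscle. The members were taken by symbol: the adult alpha globins Hba-a1 and Hba-a2, the adult beta globins Hbb-b1, Hbb-b2 and Hbb-bt, and Alas2, 6 of 24421 genes in each table. The study, by its title, concerned Dkk1, the internalisation of its receptor LRP6 and cancer cachexia. In kidney there was 1 library from a tumour-bearing mouse given PBS and 1 from a wild type mouse given PBS. In muscle there were 2 libraries of wild type mice given PBS, and 1 library each of a tumour-bearing mouse given PBS, a tumour-bearing mouse given MDC, a wild type mouse given DKK1, a beta-arrestin knockout given PBS and a beta-arrestin knockout given DKK1. The labels use the words tumour, MDC and beta-arrestin knockout without further detail, so the tumour line, the strain, the nature of MDC, the beta-arrestin gene, doses, times and any perfusion of the tissue are unknown here. The muscle comparisons with wild type share the same 2 wild type PBS libraries.

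Levels are given in CPM, the usual measure of a gene's read count relative to its library's scaled total, and RPKM also divides by the gene's length. Total counts ran from 21358854 to 32607835 in the 7 muscle libraries and from 42480786 to 44421797 in the 2 kidney libraries. Markers fitted the tissue labels: 11 skeletal muscle genes summed to 101000 CPM or more in each muscle library and to at most 383 CPM in kidney, and 10 kidney genes summed to 17900 and 35590 CPM in kidney. The first wild type PBS muscle library held 89.7 CPM of those kidney genes, against 4.43 to 24.7 CPM in the other 6 muscle libraries. The libraries labelled knockout held Arrb1, 1 of the 2 beta-arrestin genes, at 20.6 CPM under PBS and 28.3 CPM under DKK1, against 17.3 to 22.1 CPM in the 3 wild type muscle libraries. Arrb2 was at 9.61 and 7.98 CPM in them against 7.59 to 8.32 CPM, so neither gene was lower under that label, and these levels give no check of it. The set letter in the table names joins the tumour muscle libraries with wild type library 1, and the DKK1 and knockout libraries with wild type library 2. Below, the ratio to library 1 is therefore the one within the set for the tumour libraries, and the ratio to library 2 for the DKK1 and knockout libraries.

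Haemoglobin is a tetramer of alpha and beta globin chains, each holding a haem group. Globin messenger RNA is made in erythroid cells of marrow and spleen, and it persists in reticulocytes, the young red cells that circulate after losing the nucleus. Alas2 is the erythroid form of 5-aminolevulinate synthase and makes the first committed step of haem synthesis in those cells, while Alas1 makes the same step in other tissues. Muscle and kidney hold such transcripts with the blood in their vessels. In these bulk samples a different number of red cells and a different amount of RNA in each cell cannot be told apart.

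The 2 alpha genes lie on chromosome 11 (Hba-a1 at chr11:32283511-32284465 and Hba-a2 at chr11:32296489-32297298, plus strand), and Alas2 lies on chromosome X (chrX:150547375-150570638, plus strand), by GENCODE M21 on GRCm38, the genome called mm10. The beta pair of this reference lies on the minus strand of chromosome 7, with Hbb-bt at chr7:103812524-103813996 and Hbb-bs at chr7:103826534-103828096. Hbb-b1 and Hbb-b2 name the beta pair of other inbred strains and are not in that annotation, but the tables list them. In every library Hbb-b1 had the same count as Hbb-bs, and Hbb-b2 the same as Hbb-bt. The Hba-a2 count exceeded that of Hba-a1 by 0.159% to 0.396%. The 6 members therefore hold 4 distinct count profiles, given below as Hba-a1, Hbb-b1, Hbb-b2 and Alas2, and the globin sum adds the first 3 of them.

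The coding sequences show why the copies are hard to count apart. Hba-a1 and Hba-a2 differ at 1 of 429 coding bases, an identity of 99.77%, and Hbb-bs and Hbb-bt differ at 1 of 444. The only stretch where the coding parts of Hbb-bs and Hbb-bt differ is shown as coding bases 397 to 437, counted from 1 at the start codon, with the differing base in a capital.
Hbb-bs: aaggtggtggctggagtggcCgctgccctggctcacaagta
Hbb-bt: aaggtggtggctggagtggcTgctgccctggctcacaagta
Reads from the rest of the coding part cannot tell these genes apart, and whether reads with several positions were counted is not stated in the sources used here. The split of beta counts between Hbb-b1 and Hbb-b2 is therefore uncertain. The globin sum is free of that split only if each read was given to 1 of the 2. With Hba-a2 above Hba-a1 by at most 0.396% in any library, that condition is in doubt, and it was not tested. A read counted at both beta genes would enter the globin sum, and the shares drawn from it, more than once. The sum takes alpha from Hba-a1 alone. If each alpha read was given to 1 of the 2 alpha genes, the sum and its shares leave out the Hba-a2 reads. Alpha and beta are thus not counted alike under either rule, and the shares describe this sum and not all globin reads.

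The members are shown with the 150 bases before their RefSeq starts (GRCm38.p6, printed 5′ to 3′ on the gene's strand). Any part of these sequences in the levels was not tested. Of the 6 member symbols 4 had a promoter in the RefSeq table, as did Hbb-bs, and Hba-a1 and Hba-a2 shared a run of 297 bases there, so Hba-a1 stands for both. Capitals mark 4 motifs on either strand: GATA (or TATC), the motif of the erythroid factor GATA1; CACCC (or GGGTG), bound by KLF1 and related factors; the CCAAT box (or ATTGG); and TATAA (or TTATA), the core of the TATA box.
Hba-a1, chr11:32283522-32283671, plus strand: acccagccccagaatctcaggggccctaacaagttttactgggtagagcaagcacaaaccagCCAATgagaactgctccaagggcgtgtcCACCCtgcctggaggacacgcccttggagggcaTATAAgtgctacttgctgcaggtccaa
Hbb-bs, chr7:103827929-103828078, minus strand: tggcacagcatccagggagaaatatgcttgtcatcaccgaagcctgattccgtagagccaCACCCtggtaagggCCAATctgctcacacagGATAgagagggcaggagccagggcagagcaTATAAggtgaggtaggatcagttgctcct
Hbb-bt, chr7:103813924-103814073, minus strand: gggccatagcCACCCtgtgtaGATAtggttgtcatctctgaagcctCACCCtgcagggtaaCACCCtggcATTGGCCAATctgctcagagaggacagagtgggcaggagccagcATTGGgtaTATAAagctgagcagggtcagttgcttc
Alas2, chrX:150547267-150547416, plus strand: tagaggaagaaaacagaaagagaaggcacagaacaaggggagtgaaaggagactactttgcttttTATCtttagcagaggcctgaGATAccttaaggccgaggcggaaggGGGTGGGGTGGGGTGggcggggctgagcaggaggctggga
The 3 globin windows each held a CACCC motif, a CCAAT box and a TATAA motif, the last beginning 27 to 29 bases before the start. GATA was in the windows of Hbb-bs, Hbb-bt and Alas2, and CACCC or its complement occurred 3 times in Alas2. No matches overlapped. Among 32851 RefSeq promoter windows of the same length, 35.7% held GATA, 37.4% CACCC, 24.5% CCAAT and 14.2% TATAA, so a single match is common.

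In wild type mice given PBS, both tissues held low levels of the members, similar when CPM was scaled within each tissue. Hba-a1 was at 328 and 320 CPM in the 2 muscle libraries (324 ± 5.69, SD, n = 2) and at 238 CPM in the kidney library. Hbb-b1 was at 129 and 117 CPM in muscle (123 ± 8.09) and 123 CPM in kidney, and Hbb-b2 at 80.4 and 56.3 CPM (68.3 ± 17.1) and 70.0 CPM. Alas2, with far fewer counts, was at 2.67 and 4.84 CPM in muscle (3.76 ± 1.54) and 3.47 CPM in kidney. The 2 wild type muscle libraries themselves differed by 1.81 times (95% counting interval 1.31 to 2.54) in Alas2. The kidney value lay between the 2 muscle values for each profile except Hba-a1, whose kidney level was 0.726 and 0.744 times the muscle levels. None of the 4 profiles passed the size rule between the tissues, a change of 2-fold or more with 100 or more counts in the higher library, which 33.1% of 13193 genes did towards kidney and 9.51% towards muscle. The scaling matters here, since CPM was scaled within each tissue: with 1 scaling over all 9 libraries the kidney globin sum became lower still (log2 ratio of -0.74 in place of -0.26). Each profile was then lower in kidney than in both muscle libraries. The mean ratios were 0.525 for Hba-a1, 0.714 for Hbb-b1, 0.744 for Hbb-b2 and 0.690 for Alas2. Per length, the deposited RPKM of Hba-a1 was 231 and 307 in wild type muscle and that of Hbb-b1 was 160 and 199. Those RPKM rest on a length of 1118 bases for Hba-a1, where the GENCODE transcript has 699, and 631 bases for Hbb-b1.

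Muscle of the tumour-bearing mouse given PBS held about 4 times the globin transcript of wild type muscle. Hba-a1 was at 1278 CPM, 3.90 and 3.996 times the 2 wild type libraries. Hbb-b1 was at 523 CPM, 4.06 and 4.46 times, and Hbb-b2 at 291 CPM, 3.62 and 5.18 times. Alas2 was at 15.6 CPM from 531 counts, against 57 and 111 counts in wild type, or 5.85 times (95% counting interval 4.44 to 7.82) and 3.22 times (2.62 to 3.99). The tumour library stood above both wild type libraries for each profile. The globin sum made up 0.218% of all counts there against 0.0422% and 0.0529%.

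**Figure D1:**
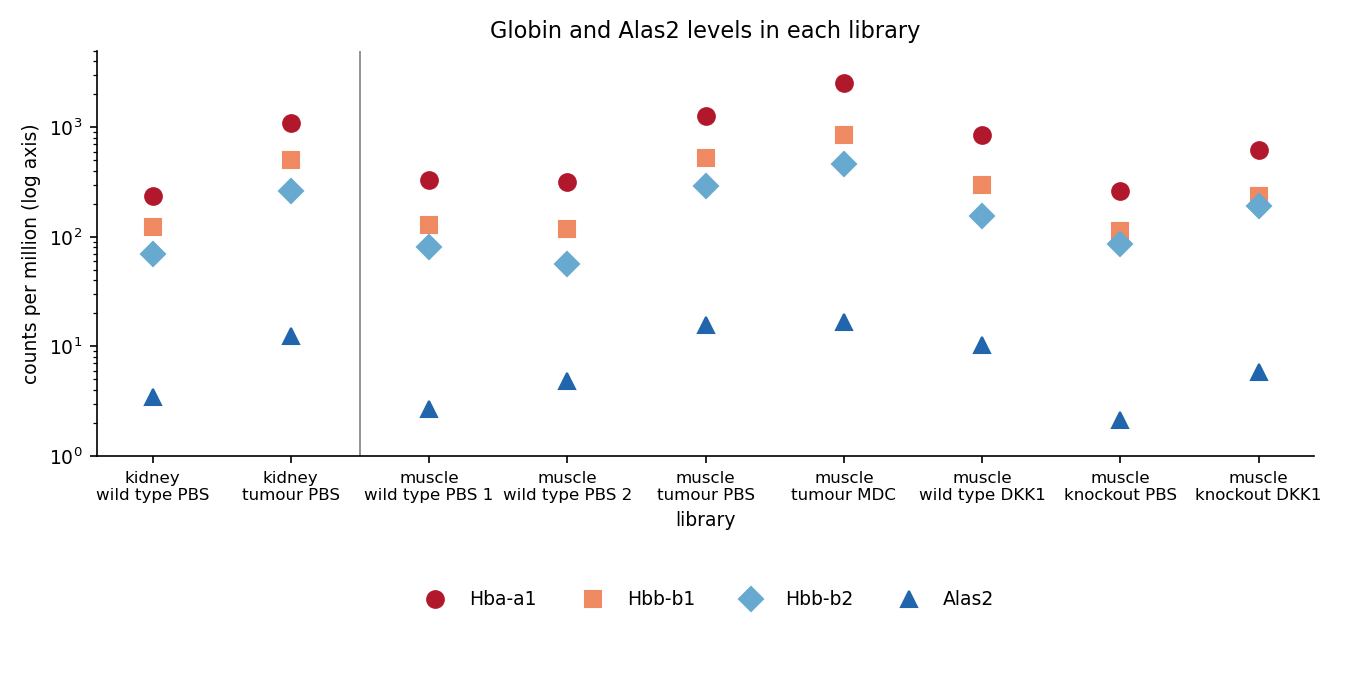
CPM, on a log axis, of Hba-a1, Hbb-b1, Hbb-b2 and Alas2 (symbols) in each of the 9 libraries, kidney left of the line and muscle right of it. Hba-a1 ranges from 238 CPM in wild type kidney to 2549 CPM in the tumour MDC muscle library, and the 4 genes are high and low in much the same libraries.

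All 4 profiles passed the size rule in that comparison, against both wild type libraries, as did 1.31% of 11292 genes in the same direction, while 0.407% passed it downwards. Their median log2 ratio was 2.09, against 0.03 over all genes kept. In edgeR's quasi-likelihood test over the 7 muscle libraries, the log2 changes were 1.98 for Hba-a1 (SE 0.79), 2.09 for Hbb-b1, 2.09 for Hbb-b2 and 2.05 for Alas2. Their adjusted p was 1.0 each, and the test called 0 of 15482 genes here and in each other muscle comparison, where 0.245% to 1.49% of genes (165 genes here) had an unadjusted p below 0.05 and DESeq2 called up to 19 genes. With the treatments pooled, tumour status (2 against 5 muscle libraries) gave log2 changes of 2.01, 1.94, 1.74 and 1.65 in the same order, with edgeR adjusted p between 0.307 and 0.357. In the fit with 1 coefficient per group only the wild type pair, whose libraries belong to different sets, is replicated. The error of every muscle change there rests on that pair and on a spread estimated over all genes. Its p-values measure the spread between those samples. The pooled fit has 5 residual degrees of freedom, from the spread among libraries of different treatment and genotype.

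The kidney of the tumour-bearing mouse showed a difference of much the same size. Hba-a1 reached 1103 CPM with tumour and 238 CPM without, a ratio of 4.63 (95% counting interval 4.54 to 4.74). Hbb-b1 was at 504 CPM, 4.11 times (3.98 to 4.23), and Hbb-b2 at 260 CPM, 3.72 times (3.57 to 3.87). Alas2 was at 12.5 CPM, 3.59 times (2.99 to 4.34), from 556 and 147 counts. The alpha gene had the highest ratio, and its interval does not meet those of the beta genes. All 4 profiles passed the size rule, as did 5.69% of 12897 genes in that direction, and 4.03% passed downwards. Their median log2 ratio was 1.97, against 0.0013 over all genes kept. With 1 library per group the difference has no replicate check, and the difference between tumour effects in the tissues was not tested. The globin sum made up 0.187% of all counts in tumour kidney and 0.0429% in wild type kidney.

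The tumour-bearing mouse given MDC had the highest globin level of the 9 libraries. Hba-a1 was at 2549 CPM, 7.77 and 7.97 times the wild type libraries. Hbb-b1 was at 845 CPM (6.57 and 7.21 times) and Hbb-b2 at 467 CPM (5.81 and 8.30 times). Alas2 was at 16.8 CPM, 6.31 and 3.48 times. All 4 passed the size rule against wild type, as did 0.719% of 10855 genes in that direction, with 0.663% downwards. The median log2 ratio of the 4 was 2.79, against 0.02 over all genes kept. The edgeR log2 changes were 2.98, 2.78, 2.77 and 2.16, with adjusted p of 1.0. DESeq2 gave adjusted p of 0.00423 for Hba-a1, 0.0154 for Hbb-b1 and 0.0239 for Hbb-b2, and of 1.0 for Alas2. It called 6 genes, 0.0388%, as higher. Copies with equal counts were tested and adjusted as separate genes there. The 6 therefore include Hbb-bs and Hbb-bt beside the 3 globins named, and that share is mostly the members and their copies.

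Against the tumour-bearing mouse given PBS, the MDC library was higher in globin but hardly in Alas2. Hba-a1 was 1.99 times as high (1.97 to 2.02), just short of the 2-fold of the size rule, Hbb-b1 1.62 times (1.58 to 1.65) and Hbb-b2 1.60 times (1.56 to 1.65). Alas2 was 1.08 times as high, with a counting interval of 0.943 to 1.23 that includes no difference. With scaling by total counts the Alas2 ratio turned to 0.884, while the globins stayed higher at 1.64, 1.33 and 1.32 times. With DESeq2 size factors the Hba-a1 ratio was 2.01, so its side of the 2-fold line turned on the scaling. With the scaling used for CPM no member passed the size rule, which 1.17% of 11005 genes passed upwards and 3.22% downwards. The edgeR log2 changes were 1.00 (SE 0.96), 0.69, 0.68 and 0.11, with adjusted p of 1.0.

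**Figure D2:**
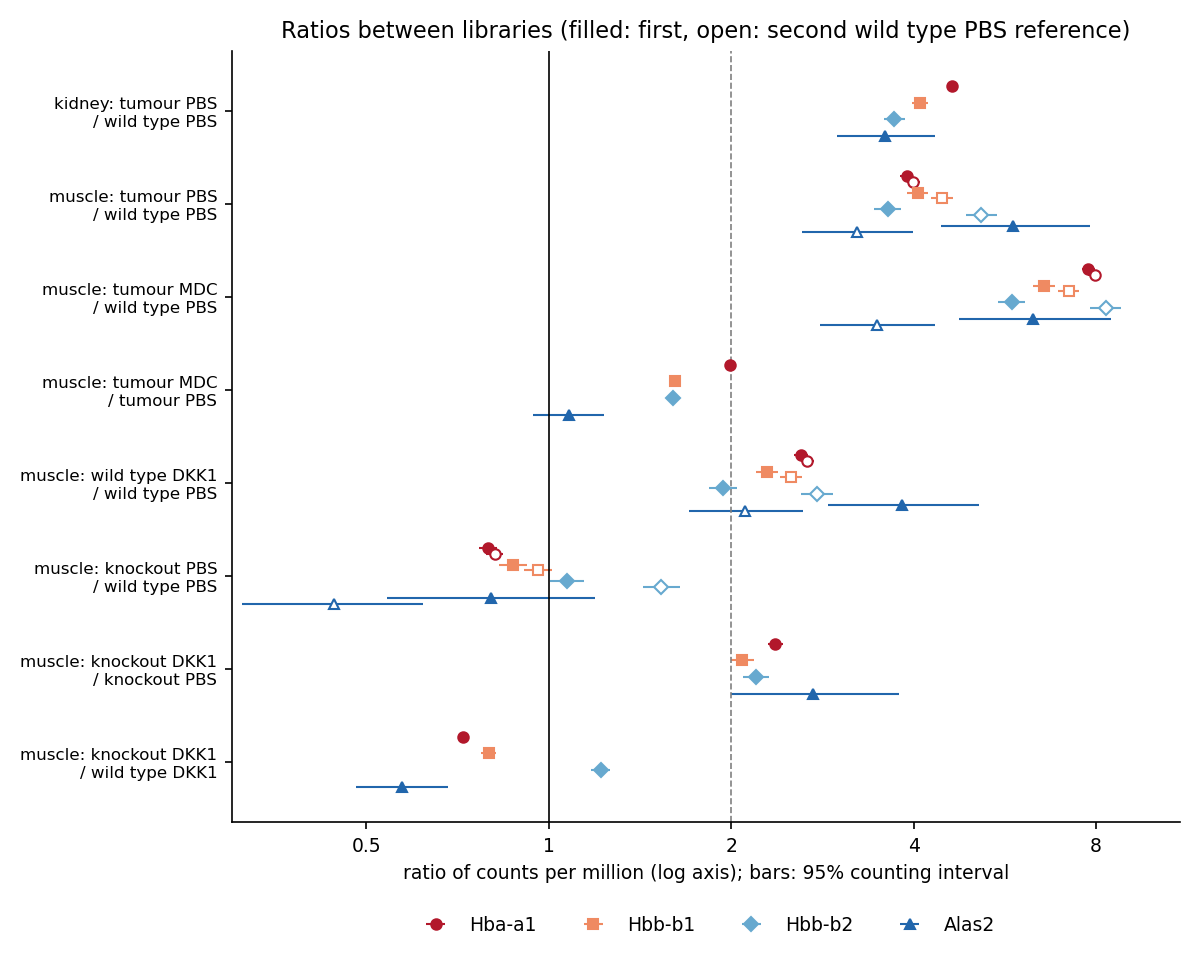
Ratios of CPM between libraries, on a log axis, for 8 comparisons, with 95% counting intervals as bars; filled and open symbols use the first and the second wild type PBS muscle library, the solid line marks equal levels and the dashed line a ratio of 2. The tumour libraries (Hba-a1 at 3.90 to 7.97 in muscle) and the DKK1 libraries lie right of equality for each gene against PBS without tumour in the same genotype, while knockout DKK1 against wild type DKK1 lies left of it for Hba-a1, Hbb-b1 and Alas2, and the knockout PBS library ranges from 0.443 (Alas2) to 1.53 (Hbb-b2).

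Muscle of wild type mice given DKK1, the secreted inhibitor of Wnt signalling that binds LRP6, held more red cell transcript than either wild type PBS library. Hba-a1 was at 855 CPM, 2.61 and 2.67 times the PBS libraries, and Hbb-b1 at 295 CPM, 2.29 and 2.51 times. Hbb-b2 was at 156 CPM, 1.94 and 2.77 times. Alas2 was at 10.2 CPM, 3.82 times (2.89 to 5.14) the first and 2.11 times (1.70 to 2.63) the second PBS library. Hba-a1, Hbb-b1 and Alas2 passed the size rule, which 2.30% of 11646 genes passed upwards and 0.240% downwards, and Hbb-b2 missed it against the first library only. The median of the 4 was 1.33 on the log2 scale, against 0.0069 over all genes kept. The edgeR log2 changes lay between 1.19 and 1.44 with adjusted p of 1.0. Scaling by total counts moved every log2 change in this comparison up by 0.48, to 3.69 times for Hba-a1.

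The same agent went with a difference of like size in the mice labelled beta-arrestin knockout. Hba-a1 was at 616 CPM with DKK1 and 260 CPM with PBS, 2.37 times (2.30 to 2.44), Hbb-b1 at 235 and 113 CPM, 2.09 times, and Hbb-b2 at 190 and 86.3 CPM, 2.20 times. Alas2 was at 5.86 and 2.15 CPM, 2.73 times (2.00 to 3.78), from 193 and 52 counts. All 4 passed the size rule, as did 2.18% of 10838 genes, with 0.683% downwards. The difference between the DKK1 effects in knockout and wild type was -0.16 for Hba-a1 on the log2 scale (SE 1.26), -0.20 for Hbb-b1 (SE 1.11), -0.05 for Hbb-b2 (SE 1.07) and 0.0064 for Alas2 (SE 1.06), with edgeR adjusted p of 1.0. This contrast takes wild type PBS from both of the 2 libraries, which belong to different sets, and its standard errors rest on that pair. Within set letter C, the log2 ratio of DKK1 to PBS in knockout and wild type was 1.24 and 1.42 for Hba-a1. It was 1.06 and 1.33 for Hbb-b1, 1.14 and 1.47 for Hbb-b2, and 1.45 and 1.08 for Alas2. The 4 libraries of that set leave no residual to test the difference within it.

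In an additive model of genotype and treatment over the 4 libraries with set letter C, the DKK1 effect on the log2 scale was 1.34 for Hba-a1 (SE 0.13), 1.21 for Hbb-b1 (SE 0.14), 1.31 for Hbb-b2 (SE 0.15) and 1.26 for Alas2 (SE 0.25). The edgeR adjusted p was 0.0785 for Hba-a1, 0.0950 for both beta genes and 0.167 for Alas2, none below 0.05. In that model 0 of 14366 genes were called higher and 0.0348% lower, while 11.7% had an unadjusted p below 0.05. With 4 single libraries that model has 1 residual degree of freedom, the departure from additivity. Its standard errors and p-values measure that departure and not the spread between animals. Both DKK1 libraries were above their PBS counterparts for each member.

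With PBS, the library labelled knockout had a globin sum of 0.855 and 0.931 times the wild type libraries. Hba-a1 was 0.794 and 0.814 times the wild type libraries, Hbb-b1 0.874 and 0.959 times, and Hbb-b2 1.07 and 1.53 times. Alas2 was 0.803 times (0.541 to 1.19) the first and 0.443 times (0.312 to 0.621) the second. No member passed the size rule, which 0.745% of 10872 genes passed upwards and 0.616% downwards, and the edgeR adjusted p was 1.0. With DKK1, the library labelled knockout was at 0.721 times the wild type DKK1 library for Hba-a1, 0.797 times for Hbb-b1, 1.22 times for Hbb-b2 and 0.574 times (0.480 to 0.683) for Alas2, again none past the size rule (2.65% of 11601 genes upwards, 9.96% downwards). In the additive model the genotype effect on Alas2 was -0.98 on the log2 scale, with edgeR adjusted p = 0.0464, where 10.2% of genes were called lower and 6.08% higher. The effects on Hba-a1 (-0.40), Hbb-b1 (-0.21) and Hbb-b2 (0.43) had adjusted p of 0.0897, 0.341 and 0.0927. Against wild type library 1, which that model leaves out, the Alas2 interval included no difference. The p-values of that model, as stated above, measure departure from additivity and not the spread between animals.

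The proportions of the members within a library do not depend on the scaling. Hbb-b2 made up 43.4% of the beta counts in the knockout library given PBS and 44.7% (95% exact interval 43.9 to 45.5) in the one given DKK1. In the other 7 libraries, of both tissues, it made up 32.4% to 38.4%, so the 2 knockout libraries stood above all of them. Wild type PBS muscle itself ran from 32.4% (31.0 to 33.9) to 38.4% (37.0 to 39.9), wider than counting error. The tumour libraries and the wild type DKK1 library lay between these 2. This contrast was picked after its values were seen and has no test. The beta haplotype differs between inbred strains, and with the strain not known here, beta haplotype, genotype and read assignment cannot be told apart.

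Hba-a1, taken alone for the 2 alpha genes, made up 55.3% of the globin sum in wild type kidney, the lowest share, and 66.0% in the MDC library, the highest. With the 2 beta genes both in that sum, these values compare libraries and do not give the alpha part of all globin reads. Tumour PBS muscle (61.1%) and wild type muscle library 1 (61.1%) agree within counting error, while wild type library 2 was at 64.8%. The RPKM ratio of Hba-a1 to the 2 beta genes together ran from 0.697 to 1.10.

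Alas2 did not keep a fixed proportion to globin. It was at 4.36 counts per 1000 counts of the globin sum (3.93 to 4.83) in the MDC library and at 7.46 (6.84 to 8.13) in the tumour PBS library, intervals that do not meet. The 2 wild type PBS libraries lay at 4.97 (3.77 to 6.45) and 9.82 (8.07 to 11.8), near both ends of the range of all 9 libraries. The difference between the tumour libraries was thus smaller than that between the 2 wild type libraries. In kidney the proportion was 6.68 with tumour and 8.06 without, and the intervals overlap.

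**Figure D3:**
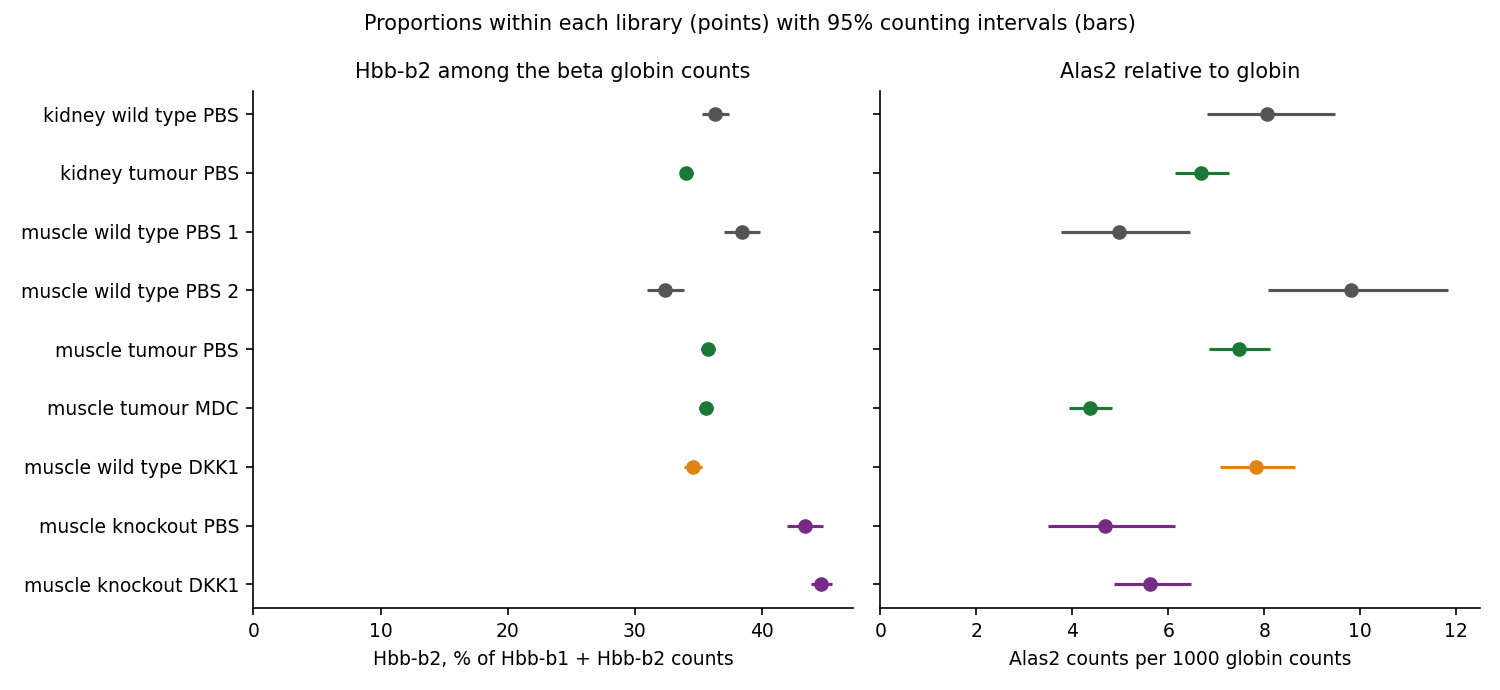
Left, Hbb-b2 as a percent of the Hbb-b1 and Hbb-b2 counts; right, Alas2 counts per 1000 globin counts; points are libraries and bars 95% counting intervals, with tumour in green, wild type DKK1 in orange, knockout in purple and wild type PBS in grey. The 2 knockout libraries lie at 43.4% and 44.7%, right of the other 7, and the 2 wild type PBS muscle libraries span 4.97 to 9.82 Alas2 counts per 1000.

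The other genes of haem synthesis, most of which serve many tissues, lay closer to equal levels than Alas2 did in muscle of tumour or wild type DKK1 mice against wild type PBS, and in knockout DKK1 against knockout PBS. The list held 12 genes, among them the enzymes Alas1, Alad, Uros, Urod, Cpox, Ppox and Fech, and Slc25a37, Slc25a38, Abcb10 and Tmem14c for mitochondrial transport. None of the 12 passed the size rule in any of the 7 muscle comparisons, and all had 100 or more counts. Since 0.240% to 9.96% of genes passed it in a given direction, a count of 0 of 12 is near that background and is no result about the list. Their median log2 change was -0.11 in tumour PBS muscle, -0.02 in tumour MDC muscle and -0.01 in wild type DKK1 muscle, against 0.03, 0.02 and 0.01 over all genes tested. Fech, ferrochelatase, which puts iron into haem, was at 151 CPM in tumour PBS muscle and 160 and 161 CPM in wild type. Alas1 was at 86.4 CPM against 106 and 168 CPM. Their sum was 562 to 642 CPM over all 7 muscle libraries.

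**Figure D4:**
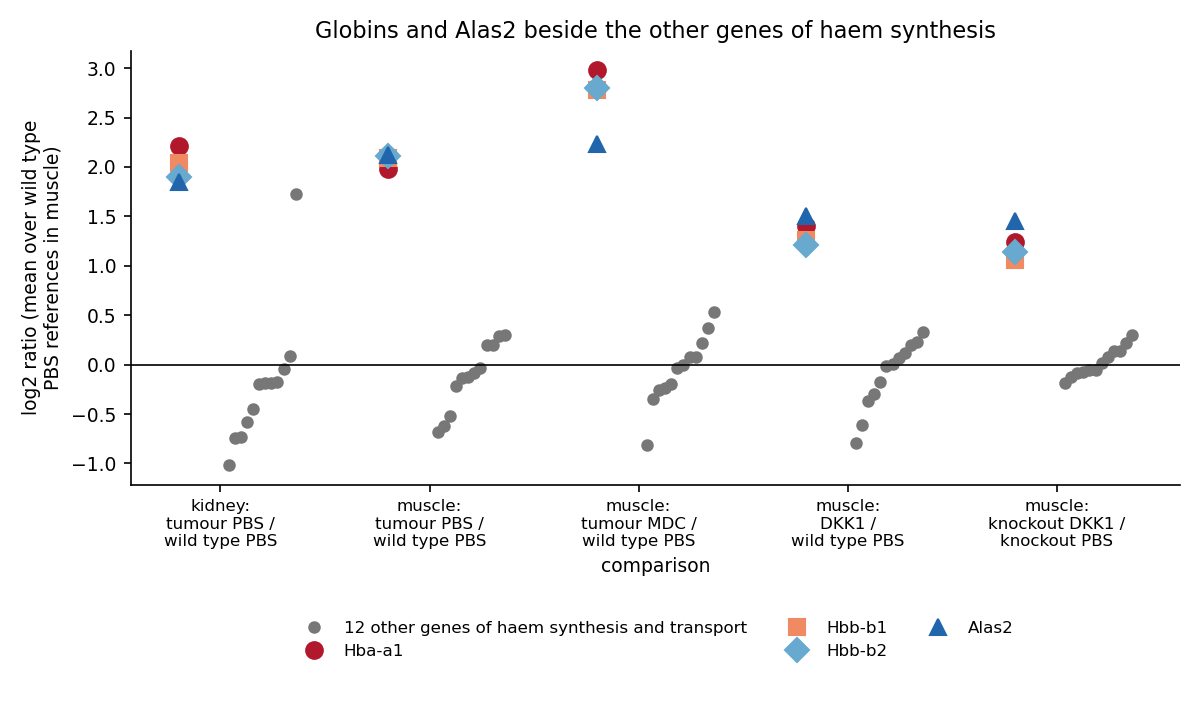
Log2 ratios of Hba-a1, Hbb-b1, Hbb-b2 and Alas2 (coloured symbols) and of the 12 other genes of haem synthesis and transport (grey points, ordered by value) in 5 comparisons. In muscle the grey points centre on 0, with medians of -0.11 and -0.02 in the tumour comparisons, below all 4 members; in kidney 1 of them, Alas1, lies at 1.73.

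In kidney 1 gene of that list passed the size rule upwards and 1 downwards, near the 5.69% and 4.03% of all genes. Alas1, the housekeeping form of Alas2, was at 256 CPM in tumour and 77.2 CPM in wild type kidney, from 11422 and 3266 counts, a log2 ratio of 1.73. Cpox, coproporphyrinogen oxidase, was at 80.9 and 163 CPM, a log2 ratio of -1.01. The median of the list was -0.19 against 0.0013 over all genes tested.

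Alad, which joins 2 molecules of aminolevulinate, differed between sets of libraries. It was at 21.5 and 21.3 CPM in the libraries labelled knockout, 38.4 CPM with DKK1 and 41.8 CPM in wild type library 2, and 76.0 to 105 CPM in the 3 muscle libraries with set letter B. In the additive model the genotype effect was -0.92 on the log2 scale (edgeR adjusted p = 0.0104), and that on Alas1 was -0.65 (0.0273). These were the 2 of 12 genes called for genotype, both lower, and 0 of 12 were called for DKK1; reading that model for the list was chosen after seeing the data. With 10.2% of all genes called lower for genotype and 0.0348% for DKK1, these counts are near the background. The number of Alad copies is known to differ between inbred strains, and its part here was not tested.

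Other genes known from red cells had few counts or are used by muscle and kidney too. Of 15 membrane genes 13 were in the tables and 7 kept for testing in muscle, and of 21 erythroid factors and enzymes 19 and 14. No membrane gene passed the size rule against wild type PBS in the tumour, MDC or DKK1 muscle libraries, and no erythroid factor did. Since 0.240% to 2.30% of all genes passed it there in a given direction, these counts of 0 are near that background. The membrane genes summed to 714 and 844 CPM in the tumour muscle libraries and to 599.5 and 942 CPM in wild type PBS muscle, which overlap. Several of these genes belong to the tissues too: Ank1 and Sptb serve muscle, and Slc4a1 and Car2 the kidney tubule. The defining factor Gata1 had at most 2 counts in any library, and the blood group genes Rhd and Rhag at most 4. The embryonic globins Hba-x, Hbb-y, Hbb-bh1 and Hbb-bh2 had 0 counts in all 9 libraries, which allows up to 0.0673 to 0.141 CPM by counting error.

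Below the 100 counts of the size rule, Slc4a1, the band 3 anion exchanger of the red cell membrane, was higher in the tumour muscle libraries; it was picked after its values were seen. It had 35 counts in tumour PBS, 34 in tumour MDC and 10 in wild type DKK1 muscle, against 2 and 1 in wild type PBS and 3 and 2 in the knockout libraries. The tumour PBS ratios were 10.98 (2.82 to 94.2) and 23.6 (3.96 to 958). In kidney, where tubule cells use it too, Slc4a1 had 1933 and 1779 counts, a ratio of 1.03.

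Epo, the hormone that drives red cell formation, had at most 1 count in any library, and no gene of the erythropoietin list passed the size rule in the tumour, MDC or DKK1 comparisons with wild type PBS. Since 0.240% to 5.69% of all genes passed it there in a given direction, that absence is near the background. Among genes of haem breakdown and iron, Hp, haptoglobin, which binds free haemoglobin, was at 132 CPM in tumour and 4.42 CPM in wild type kidney, a log2 ratio of 4.89. In muscle Hp was at 65.5 CPM in tumour PBS and 18.9 CPM in tumour MDC, and at 6.70 and 230 CPM in wild type PBS. Within the set, against library 1, the log2 ratio of Hp was 3.28 in tumour PBS and 1.49 in tumour MDC, and against library 2 it was -1.81 and -3.60. Tfrc, the transferrin receptor for iron uptake, was at 290 and 245 CPM in the libraries labelled knockout and at 103 to 114 CPM in the other 5 muscle libraries. It passed the size rule there (log2 change of 1.43 under PBS), unlike the members. Mb, myoglobin, the oxygen-binding globin of muscle fibres, ran from 474 to 4957 CPM in muscle and from 4.71 to 6.71 CPM in kidney, and did not pass the size rule in any muscle comparison.

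Markers of other blood and vessel cells are set beside these differences. The 11 neutrophil genes in the tables summed to 373 CPM in tumour PBS muscle, 47.8 CPM in tumour MDC muscle and 14.9 and 10.9 CPM in wild type PBS, with none at 0 in the tumour libraries. In kidney they summed to 99.5 CPM with tumour and 5.01 CPM without. Of these sums Lcn2 alone, named after its values were seen, held 77.3 CPM and 2.74 CPM, so they rest mostly on that gene. In the DKK1 and knockout muscle libraries the 11 genes summed to 2.64 to 4.76 CPM. All 11 were past the size rule upwards in tumour PBS against wild type muscle, where 1.31% of all genes were. All 11 passed it downwards in MDC against PBS tumour muscle, where 3.22% of all genes did and globin was higher. Platelet genes summed to 19.7 and 12.6 CPM in the tumour muscle libraries and 6.33 and 16.6 CPM in wild type PBS, which overlap. Pf4 alone held 11.1 CPM in wild type library 2. Within the set, against the 6.33 CPM of library 1, both tumour libraries were higher. The median log2 change of the 8 platelet genes kept was 1.74 in tumour PBS and 0.13 in tumour MDC, most with under 100 counts. Monocyte and macrophage genes summed to 146 and 272 CPM in the tumour muscle libraries, inside the 82.5 to 529 CPM of wild type PBS. Within the set, against the 82.5 CPM of library 1, both were higher. Lymphocyte genes summed to at most 3.54 CPM in muscle.

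The 12 endothelial genes summed to 1006 CPM in tumour PBS, 821 CPM in tumour MDC and 1244 CPM in wild type DKK1 muscle, against 472 and 664 CPM in wild type PBS and 394 and 450 CPM in the libraries labelled knockout given PBS and DKK1. Of the 12, 3 passed the size rule upwards in tumour PBS muscle (Plvap, Ly6c1, Cldn5), 3 in tumour MDC and 3 in wild type DKK1 (Kdr, Tie1, Emcn), all named after their values were seen, where 1.31%, 0.719% and 2.30% of all genes did. In knockout DKK1 against wild type DKK1 11 of 12 passed it downwards, with a median log2 change of -1.50, where 9.96% of all genes did. In knockout DKK1 against knockout PBS none of the 12 passed it in either direction, where 2.18% of all genes passed upwards and 0.683% downwards. All 4 globin and Alas2 profiles passed it upwards there. The median log2 change in that comparison was 0.17 for the endothelial genes and 1.19 for the members. In kidney the sums were 332 CPM with tumour and 318 CPM without. The part of vessel or blood content in the globin differences was not tested.

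Genes whose pattern over the 7 muscle libraries was most like that of Hba-a1 were ranked by the Pearson correlation of log2 CPM among 11921 genes. The other members stood at r = 0.996 for Hbb-b1, 0.953 for Hbb-b2 and 0.941 for Alas2. The 10 highest other genes were Pgf (0.964), Prrg1, Topors, Phyhipl, Siah1a, Nufip2, 9130019O22Rik, Sfpq, Adra2b and Il33 (0.923). Pgf, placental growth factor, ran from 1.69 CPM in knockout PBS to 5.41 CPM in tumour MDC, and Il33, an alarmin cytokine, from 2.52 to 17.7 CPM in the same libraries. These are descriptions over 7 points, 2 of which are the tumour libraries, and the points share their scaling. The highest of the haem synthesis list, picked after its value was seen, was Slc25a38, a mitochondrial carrier of glycine for haem synthesis, at r = 0.905 and rank 18. It was at 15.6 and 18.5 CPM in the tumour PBS and MDC libraries and at 14.1 and 11.5 CPM in wild type PBS.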

How the data were processed

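Total RNA libraries of kidney and muscle were analysed from 1 table per library. Each deposited table holds whole-number counts of reads for every gene, which the authors did not normalise, beside a gene length and the authors' RPKM. Per the submitters' processing notes, reads were aligned with HISAT2 2.1.0 to mm10; the counting program, annotation and strand setting are not stated. The deposited RPKM equal counts per length and depth within 0.0005%.

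Genes were kept with filterByExpr at a minimum count of 10 (15482 in muscle, 15986 in kidney), and TMM factors were computed within tissue (edgeR 4.0.16, R 4.3.3). CPM uses those factors. The main test was edgeR's quasi-likelihood test on the 7 muscle libraries, 1 coefficient per group, Benjamini-Hochberg adjusted over all kept genes, with a threshold of 0.05. It has 1 residual degree of freedom, from the wild type PBS pair, and 15.2 prior degrees of freedom. Beside it stood the size rule: a 2-fold change of log2 CPM (prior count 2) and 100 counts in the higher library, against each wild type PBS library where those were the reference. Ratios have exact conditional binomial 95% intervals and shares exact binomial ones. Intervals and limits cover counting error only, and 0 counts are set to a limit of 3. Nothing in the labels says that the wild type pair came from separate animals. The alternatives were DESeq2 1.42.0, limma-voom (limma 3.58.1), DESeq2 size factors, no filter, total counts, TMM over all libraries, leaving out each wild type library, and 2 pooled designs. The test was tested on simulated counts before use. Named genes are the members, up to 2 genes per list and direction past the size rule, the genes of haem synthesis and the 10 most like Hba-a1; exceptions are stated where they occur. The members and lists were chosen with earlier results of these data known. Sequences are RefSeq promoters and GENCODE M21 transcripts. Some genes of the lists are not reported here.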

Additional observations from a re-analysis of the deposited data

How the results depend on the processing

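The globin sum, as a mean log2 ratio, kept its direction under each scaling and without each wild type PBS library in the 8 comparisons within a tissue and in that between tissues. Scaling by total counts moved it from 2.02 to 2.21 in tumour PBS against wild type PBS muscle, 0.88 to 0.60 in tumour MDC against tumour PBS, 2.91 to 2.80 in tumour MDC against wild type, 1.34 to 1.83 in wild type DKK1, 1.18 to 1.31 in knockout DKK1 against knockout PBS and -0.33 to -0.60 in knockout DKK1 against wild type DKK1. Between wild type kidney and muscle it was -0.26, and -0.75, -0.14 and -0.74 with DESeq2 size factors, total counts and TMM over all 9 libraries. Total counts moved every log2 change by -0.29 (tumour MDC against tumour PBS) to 0.48 (wild type DKK1).

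Where edgeR called 0 genes, DESeq2 called 12 in tumour PBS, 11 in tumour MDC, 4 in wild type DKK1 and 19 in knockout PBS against wild type PBS, and 14 in knockout DKK1 against wild type DKK1; the cause was not tested. Against 1 wild type library in place of both, fewer conditions apply, and the genes past the size rule went from 194 to between 1205 and 1752 in tumour PBS, from 150 to between 589 and 2487 in tumour MDC, from 296 to between 475 and 3735 in wild type DKK1, and from 148 to between 1058 and 1575 in knockout PBS. Of 140 values of single members under other tests, DESeq2 size factors, no filter and the pooled designs, 135 kept their direction and side of the threshold. Passing the threshold were the 3 globins in tumour MDC muscle with DESeq2 and Alas2 for genotype in the additive model. The DKK1 difference between genotypes for Alas2, 0.0064, turned to -0.050 with limma-voom. Outside those 140, ratios with total counts turned Alas2 from 0.11 to -0.18 in tumour MDC against tumour PBS and, between kidney and muscle, Hbb-b1 from -0.0017 to 0.12 and Alas2 from -0.050 to 0.067. There Hbb-b2 turned from 0.058 to -0.43 with TMM over 9 libraries and to -0.44 with DESeq2 size factors. No paired analysis was possible because no label says which libraries of different groups came from 1 animal; libraries with the same set letter were compared as ratios within the set and in the additive model. Alas2 had 57 and 111 counts in wild type PBS muscle, so its ratios carry the widest counting intervals of the members. Groups of 1 library and their set letter cannot be told apart outside the ratios within a set.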
